A study of Arabidopsis thaliana with 4 samples.

Results

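The class IV homeodomain leucine zipper genes of Arabidopsis thaliana encode transcription factors that pair a homeodomain with a leucine zipper and a START lipid-binding domain. The 10 genes described here are HDG3 (AT2G32370), FWA (AT4G25530), HDG8 (AT3G03260), HDG9 (AT5G17320), ATML1 (AT4G21750), PDF2 (AT4G04890), GL2 (AT1G79840), ANL2 (AT4G00730), HDG2 (AT1G05230) and HDG11 (AT1G73360). They were taken by locus identifier from the 33187 identifiers of the deposited expression matrix, and all 10 were found. HDG3 was the reason for the choice, because its level was higher in the mutant libraries, so the difference between genotypes is given for all 10 genes as a description. They took part in the fit across all genes, and counts of its calls for them are given only as description.

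RNA came from whole seeds 7 days post anthesis, with embryos labelled torpedo to linear. There were 2 libraries labelled erf4, from the T-DNA insertion line SALK_073394 (erf4_2 in the sample titles), and 2 wild-type libraries. The mutated gene, ERF4, encodes a transcriptional repressor of the ethylene response factor family. Whether the replicates of each genotype were separate plants is not given in the sources used here, so the spread between them may be technical.

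Most class IV genes act in the outermost cell layer, where ATML1 and PDF2 set epidermal identity from the early embryo on. GL2 acts in the seed coat epidermis, in trichomes and in roots. Several members are imprinted in the endosperm, the nourishing tissue beside the embryo: HDG3 is transcribed mainly from the paternal copy, and FWA, HDG8 and HDG9 mainly from the maternal copy. HDG3 is also known for its effect on the timing of endosperm cellularization. The TPM values do not separate parental copies, so nothing here measures imprinting itself.

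Levels are in TPM (transcripts per 1000000), which takes gene length into account, so that levels of different genes can be compared. TPM keeps no read counts, and library depth is therefore unknown. Between 20295 and 20630 genes had at least 1 TPM in a library. ERF4 itself did not check the labels: it had 34.6 and 41.3 TPM in the libraries labelled erf4, against 38.0 and 33.0 TPM in the wild type, and an insertion can leave a transcript that is still counted. The library labelled erf4 replicate 2 stood apart in its seed storage transcripts. The 2S albumin gene SESA3 had 10649 and 137 TPM in the libraries labelled erf4, against 9387 and 4932 TPM in the wild type. In these whole-seed samples, fewer cells of a type and less RNA per cell cannot be told apart.

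HDG3 had the largest difference between genotypes among the 10 genes. It had 73.3 and 61.6 TPM in the libraries labelled erf4, against 25.7 and 21.0 TPM in the wild type. The lower of the libraries labelled erf4 was thus above the higher wild-type library, and replicate 1 was the higher library in both genotypes. The means were 67.4 ± 8.34 TPM in the libraries labelled erf4 and 23.3 ± 3.37 TPM in the wild type (SD, n = 2 each), a ratio of 2.89. On the log2(TPM + 1) scale the difference was 1.49 (SE 0.18), and 115 of the 20804 genes with at least 1 TPM in at least 2 libraries had a larger one. Leaving out the library labelled erf4 replicate 2 gave 1.62, and leaving out any other library gave between 1.35 and 1.63.

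The 3 maternally expressed relatives also lay above both wild-type libraries, at levels far below that of HDG3. FWA, best known for the late flowering caused by its ectopic expression, had 4.53 and 5.48 TPM in the libraries labelled erf4, against 3.13 and 1.95 TPM in the wild type. HDG8 had 6.75 and 5.91 TPM in the libraries labelled erf4, against 3.20 and 2.08 TPM in the wild type. HDG9 had 8.24 and 7.14 TPM in the libraries labelled erf4, against 5.48 and 4.34 TPM in the wild type. In none of these genes did the genotypes overlap. Of all tested genes, 21.5% likewise lay above both wild-type libraries. The ratio of mean TPM was 1.97 for FWA, 2.40 for HDG8 and 1.57 for HDG9, and the log2 differences were 0.78 (SE 0.27), 1.02 (SE 0.26) and 0.56 (SE 0.22). The wild-type replicates of FWA and HDG8 differed more than those of HDG3, with replicate 1 at 1.61 and 1.54 times replicate 2, against 1.23 times for HDG3. The summed TPM of the 4 imprinted genes was 92.9 and 80.1 in the libraries labelled erf4, against 37.5 and 29.3 in the wild type.

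**Figure D1:**
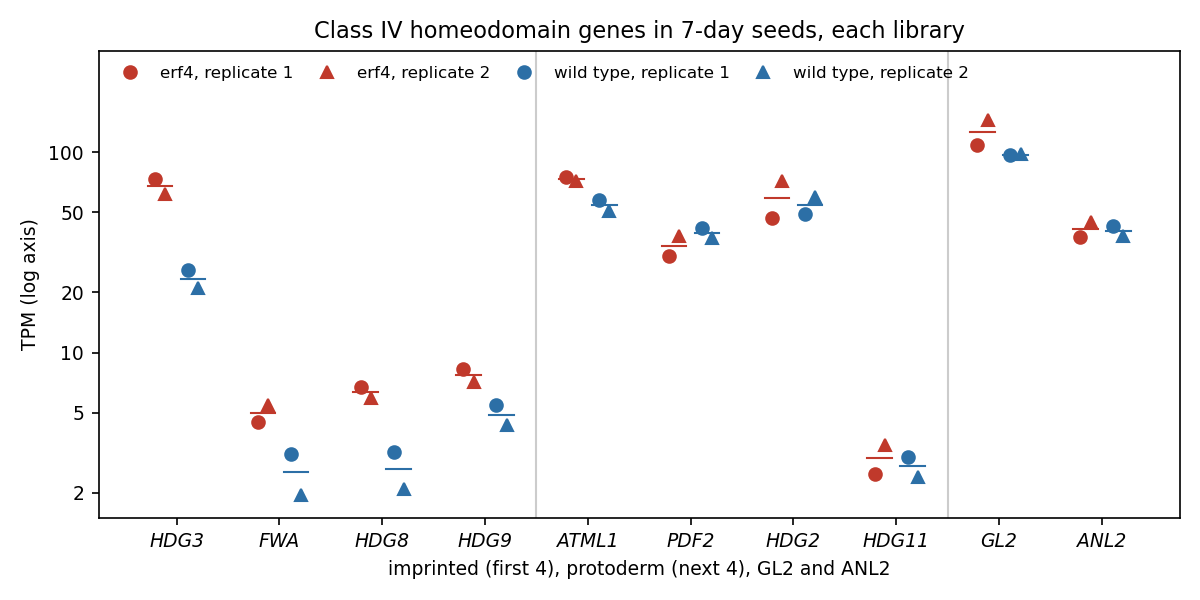
TPM of the 10 class IV genes in each library on a log axis, with the libraries labelled erf4 in red and the wild type in blue. Circles are replicate 1, triangles replicate 2 and short lines genotype means. HDG3 stands at 61.6 and 73.3 TPM in the libraries labelled erf4, against 21.0 and 25.7 TPM in the wild type, and the genotypes of PDF2, HDG2, HDG11 and ANL2 overlap.

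Among the 4 genes of the protoderm, the young epidermis, ATML1 alone was above the wild-type range, as were 21.5% of all tested genes. ATML1 had 75.2 and 71.9 TPM in the libraries labelled erf4, against 57.6 and 50.9 TPM in the wild type, a ratio of mean TPM of 1.36. Its close paralogue PDF2, with which it shares its role in the embryo, had 30.2 and 38.1 TPM in the libraries labelled erf4, against 41.9 and 37.1 TPM in the wild type. The genotypes overlapped for PDF2, the only one of the 10 genes with a negative log2 difference (-0.21, SE 0.18, against 0.43, SE 0.14, for ATML1). How reads that match both paralogues were assigned is not given in the sources used here.

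HDG2, which takes part in stomatal and trichome development, had 47.1 and 71.4 TPM in the libraries labelled erf4, against 48.9 and 59.4 TPM in the wild type. The library labelled erf4 replicate 1 was the lowest of the 4 libraries and replicate 2 the highest. HDG11, which limits trichome branching and is linked with drought tolerance, was low everywhere, with 2.49 and 3.47 TPM in the libraries labelled erf4, against 3.02 and 2.40 TPM in the wild type. The log2 differences of 0.10 for both genes were smaller than their SE of 0.24 for HDG2 and 0.26 for HDG11. The summed TPM of the 4 protoderm genes was 155 and 185 in the libraries labelled erf4, against 151 and 150 in the wild type.

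GL2 was the most abundant class IV transcript in each library. It had 109 and 144 TPM in the libraries labelled erf4, against 97.1 and 97.3 TPM in the wild type. Both libraries labelled erf4 were above the wild type, but they differed from each other by more than replicate 1 differed from the wild type, and the log2 difference was 0.36 (SE 0.18). It was 0.16 without the library labelled erf4 replicate 2 and 0.57 without replicate 1. In the RefSeq annotation of TAIR10.1, GL2 overlaps a long noncoding RNA, AT1G09927, on its own strand, so its level is uncertain where reads could be shared. ANL2, which promotes anthocyanin in the subepidermal layer, had 37.5 and 44.9 TPM in the libraries labelled erf4, against 42.9 and 38.0 TPM in the wild type, so its genotypes overlapped.

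**Figure D2:**
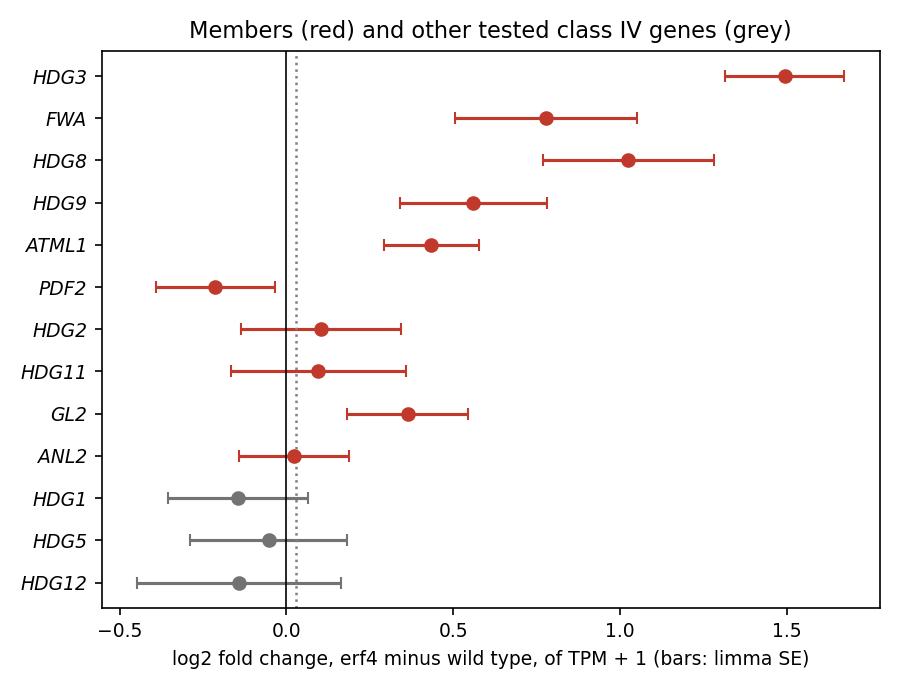
Difference of log2(TPM + 1), libraries labelled erf4 minus wild type, for the 10 genes (red) and the 3 other class IV genes with enough expression (grey). Points are differences of means of 2 libraries each, bars the standard errors from limma, and the dotted line the median of all tested genes (0.03). HDG3 lies at 1.49, the other imprinted genes between 0.56 and 1.02, and PDF2 at -0.21.

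Over the whole set, both libraries labelled erf4 lay above the wild-type range for 6 of the 10 genes and below it for 0. Among all 20804 tested genes the shares were 21.5% above and 12.2% below. Without the library labelled erf4 replicate 2 the counts were 6 above and 3 below, with 29.0% of tested genes above. The share of tested genes below was not computed for that setting, so the 3 below have no share beside them. Without replicate 1 they were 9 and 0, with 55.2% of tested genes above. Neither count can fall when a library is left out, so they do not measure stability. The log2 difference was positive for 9 of the 10 genes, as for 55.9% of tested genes. The median log2 difference was 0.40 for the 10 genes and 0.03 for all tested genes. HDG3 and HDG8 combined a ratio of mean TPM of at least 2 with no overlap, as did 2.88% of tested genes. limma called 0 of the 10 genes at an adjusted p under 0.05, and 0% of all tested genes. At an unadjusted limma p under 0.05 the counts were 5 of the 10 and 6.98% of tested genes. limma called 204 genes without wild type replicate 1, HDG3 among them, and 49 without wild type replicate 2, with 0 of the 10. Since HDG3 was chosen on this comparison, these counts describe the set and support nothing further.

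The 6 class IV genes outside the set gave no such differences. HDG5 had 17.4 and 26.6 TPM in the libraries labelled erf4, against 21.9 and 22.9 TPM in the wild type. HDG1, the closest relative of ANL2, had 8.71 and 11.6 TPM in the libraries labelled erf4, against 11.7 and 10.8 TPM in the wild type. HDG12, a paralogue that acts with HDG11 in trichomes, had 6.60 and 12.3 TPM in the libraries labelled erf4, against 9.71 and 10.4 TPM in the wild type. All 3 had overlapping genotypes and log2 differences between -0.14 and -0.05, which were positive without the library labelled erf4 replicate 1. HDG7, HDG10 and HDG4 did not pass the filter on low values, and their highest levels in any library were 1.21, 0.47 and 0.05 TPM. HDG4 and HDG10 were each listed at 0 in some libraries.

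The order of levels within the family differed by genotype mainly through HDG3. In the libraries labelled erf4 the mean TPM ran from GL2 (127) through ATML1 (73.5), HDG3 (67.4), HDG2 (59.2), ANL2 (41.2) and PDF2 (34.1) to HDG5 (22.0). There HDG3 did not differ from ATML1 or HDG2 beyond the spread of the libraries. In the wild type the order was GL2 (97.2), ATML1 (54.3), HDG2 (54.2), ANL2 (40.5), PDF2 (39.5), HDG3 (23.3) and HDG5 (22.4). Here ATML1 and HDG2 could not be separated, nor ANL2 and PDF2, nor HDG3 and HDG5, whereas the range of HDG3 lay wholly below that of PDF2. At the low end, HDG11, HDG8 and FWA had overlapping wild-type ranges at 2.71, 2.64 and 2.54 TPM. In the libraries labelled erf4 HDG8 (6.33 TPM) and FWA (5.01 TPM) each lay above HDG11 (2.98 TPM) without overlap.

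HDG3 made up 17.2% and 12.2% of the summed TPM of the 16 class IV genes in the libraries labelled erf4, against 6.89% and 5.83% in the wild type. The summed TPM was 428 and 506 in the libraries labelled erf4, against 373 and 359 in the wild type. For the 9 genes of the set other than HDG3 the sums were 321 and 393 TPM in the libraries labelled erf4, against 303 and 293 TPM in the wild type. The 2 genes with the largest differences in mean TPM were HDG3 and GL2.

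**Figure D3:**
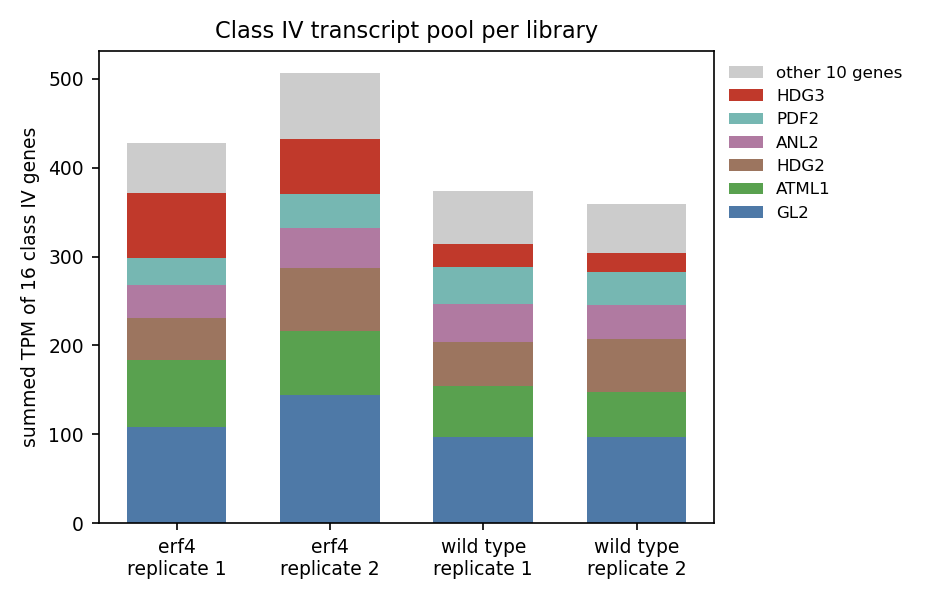
Summed TPM of the 16 class IV genes in each library, as stacked bars, with the libraries labelled erf4 on the left and the wild type on the right. The HDG3 segment (red) is 17.2% and 12.2% of the bar in the libraries labelled erf4, against 6.89% and 5.83% in the wild type.

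HDG3 lies between AT2G32360 and AT2G32380 in the RefSeq annotation of TAIR10.1 and overlaps neither. AT2G32380 had 15.0 and 13.7 TPM in the libraries labelled erf4, against 11.5 and 10.0 TPM in the wild type, so it too lay above both wild-type libraries, by less than HDG3. AT2G32360 had at most 1.11 TPM in any library. HDG8 adjoins UGP1 and HDG9 adjoins UGP2, a pair of genes for UDP-glucose pyrophosphorylase. UGP1 had 119 and 111 TPM in the libraries labelled erf4, against 122 and 83.6 TPM in the wild type, and UGP2 had 22.8 and 20.5 TPM in the libraries labelled erf4, against 28.4 and 20.5 TPM in the wild type. The genotypes overlapped at both UGP genes. FWA overlaps the mismatch repair gene MSH3 on the opposite strand, and strand-specific counting is not stated, so reads of the pair may be mixed. MSH3 had 1.91 and 2.16 TPM in the libraries labelled erf4, against 2.08 and 1.96 TPM in the wild type.

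The tested genes whose 4 values ran closest to those of HDG3, by Euclidean distance between log2(TPM + 1) profiles centred on each gene's mean, were AT2G15610 (distance 0.06), GPAT3 (0.08), the unannotated identifier MSTRG.1716 (0.15), AT2G24810 (0.20) and AT1G05727 (0.21). AT2G15610 had 9.73 and 7.68 TPM in the libraries labelled erf4, against 2.90 and 2.23 TPM in the wild type. GPAT3, a member of the glycerol-3-phosphate acyltransferase family, had 6.82 and 5.70 TPM in the libraries labelled erf4, against 1.80 and 1.46 TPM in the wild type. MSTRG.1716 had 1.95 and 1.75 TPM in the libraries labelled erf4, against 0.17 and 0 TPM in the wild type, and AT1G05727 had 2.14 and 1.75 TPM in the libraries labelled erf4, against 0 in both wild-type libraries. Both passed the filter only through the libraries labelled erf4, and at such levels the distance depends on the added 1 TPM. With 4 libraries such likeness mostly reflects the genotype difference, and all 5 genes had lower levels than HDG3.

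Other imprinted genes went both ways. Of 12 further genes known for paternal expression, 6 passed the filter, and of these 2 lay above both wild-type libraries and 1 lay under both (21.5% and 12.2% of all tested genes), with a median log2 difference of 0.18. PHE1, an endosperm MADS-box gene, had 8.07 and 6.06 TPM in the libraries labelled erf4, against 2.51 and 2.18 TPM in the wild type (log2 difference 1.26, limma adjusted p = 0.461). YUC10, an auxin synthesis gene, lay below, with 8.81 and 8.48 TPM in the libraries labelled erf4, against 13.0 and 15.0 TPM in the wild type (log2 difference -0.63). The RNA polymerase IV subunit gene NRPD1 lay above both wild-type libraries, at a log2 difference of 0.26 (SE 0.22). The chromatin remodeler gene PKR2 stood at 0.30 (SE 0.29), and its genotypes overlapped. SUVH7, ADM, AGL92, TAR1, AT1G49290 and AT5G15140 were below the filter.

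Of 5 further maternally expressed genes, 3 passed the filter, 2 of them above both wild-type libraries and 0 under both, beside the same 21.5% and 12.2%. SDC, an F-box gene, had 27.3 and 23.2 TPM in the libraries labelled erf4, against 12.5 and 9.04 TPM in the wild type (log2 difference 1.17, limma adjusted p = 0.455). The Polycomb genes FIS2 and MEA had log2 differences of 0.51 and -0.17, and the genotypes of MEA overlapped. limma called no gene of either list.

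Genes of the epidermis and cuticle lay on both sides of the wild type. Of 17 genes that act in the epidermis or cuticle, 15 passed the filter, 7 lay above both wild-type libraries and 3 under both, beside 21.5% and 12.2% of all tested genes. The median log2 difference was 0.11, between 0.04 and 0.22 over the alternatives, and limma called 0. The wax exporter gene CER5 had 249 and 294 TPM in the libraries labelled erf4, against 168 and 150 TPM in the wild type (log2 difference 0.77, limma adjusted p = 0.461). The fatty acid elongase gene CER6 had 516 and 481 TPM in the libraries labelled erf4, against 327 and 264 TPM in the wild type. FDH, another elongase gene and a known target of ATML1 and PDF2, and the transporter gene ABCG11 had log2 differences of 0.58 and 0.53. PDF1, the classical protoderm marker that ATML1 activates, lay on the other side, with 116 and 113 TPM in the libraries labelled erf4, against 166 and 132 TPM in the wild type. LACS2 and GSO1 also lay under both wild-type libraries, at log2 differences of -0.43 (SE 0.28) and -0.37 (SE 0.27). PDF1, LACS2 and GSO1 were named with their values known.

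A list drawn up around GL2 is not limited to genes that work with it in epidermal cells. Of its 12 tested genes, 5 lay above both wild-type libraries and 1 under both (21.5% and 12.2% of all tested genes). The median log2 difference was 0.15, and limma called 0. Among the 14 genes listed, GL3 and MYB23 were below the filter. The MYB genes MYB5, TT2 and MYB61 had log2 differences of 0.40, 0.58 and 0.37, and the trichome inhibitor gene TRY of 0.89. MUM4, chosen after its values were known, is a mucilage enzyme gene activated by GL2 in the seed coat, with 160 and 296 TPM in the libraries labelled erf4, against 197 and 248 TPM in the wild type. Like GL2 it was higher in the library labelled erf4 replicate 2 than in replicate 1, but its genotypes overlapped.

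Markers of seed tissues differed unevenly beside these genes, and their part in the values of the class IV genes was not tested. The counts of markers above and below stand beside 21.5% and 12.2% of all tested genes. Of 8 endosperm markers, 5 passed the filter, 2 lay above both wild-type libraries and 1 under both, with a median log2 difference of -0.01. The list summed to 944 and 854 TPM in the libraries labelled erf4, against 1689 and 1354 TPM in the wild type. Most of this was the extensin-like gene EPR1, with 779 and 633 TPM in the libraries labelled erf4, against 1530 and 1189 TPM in the wild type. The sucrose transporter gene SUC5 and the regulator gene ZOU lay above, at log2 differences of 0.35 and 0.23, and CKX2 stood at -0.18. The early endosperm genes AGL62, IKU2 and MINI3 were under 0.5 TPM in every library, MINI3 at 0 in replicate 1 of both genotypes.

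Of 8 seed coat markers, all tested, 4 lay above both wild-type libraries and 1 under both (21.5% and 12.2% of all tested genes), and the list summed to 2147 and 2065 TPM in the libraries labelled erf4, against 1503 and 1557 TPM in the wild type. Its median log2 difference was 0.62, with PRX36, SBT1.7, BAN and TT16 at 1.67, 0.67, 0.75 and 0.57. The difference was positive for 6 of the 8 markers and negative for 2. TT10, the marker under both wild-type libraries, stood at -0.21, and MUM2, whose genotypes overlapped, at -0.31. Of 11 embryo markers, 7 passed the filter, 1 was above and 3 were below, and the list summed to 193 and 240 TPM in the libraries labelled erf4, against 235 and 269 TPM in the wild type. The log2 differences were 0.57 for LEC1, -0.89 for FUS3, -0.63 for CUC1 and -0.28 for CUC3, and the median was -0.15. Of 9 silique wall and leaf markers, 6 were above and 2 below (21.5% and 12.2% of all tested genes), with a median of 0.22 (0.12 without the library labelled erf4 replicate 2) and sums of 813 and 790 TPM in the libraries labelled erf4, against 673 and 630 TPM in the wild type. TGG2, SHP1, FIL and TGG1 stood at 0.49, 0.37, -0.25 and 0.26. limma called 0 genes in each of these 4 lists.

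**Figure D4:**
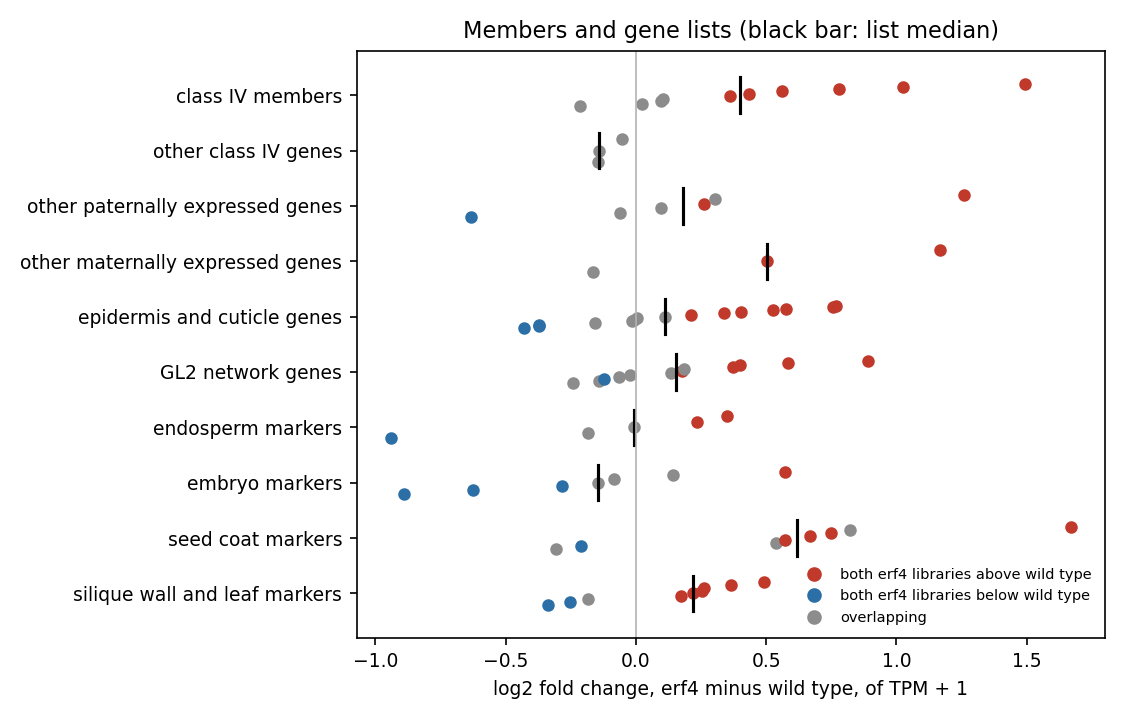
Difference of log2(TPM + 1), libraries labelled erf4 minus wild type, for each tested gene of the 10-gene set and of the other lists. Red points have both libraries labelled erf4 above both wild-type libraries, blue points both below, grey points overlap, and black bars are list medians. The medians lie at 0.40 for the set, -0.14 for the other class IV genes, -0.01 for the endosperm markers and 0.62 for the seed coat markers.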

How the data were processed

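Per the submitters' processing notes, fastp, HISAT and RSEM were used, with no versions or roles. The build behind the matrix is not given in these sources. The authors deposited TPM per gene and library, rounded to 2 decimals, and the mean TPM of each genotype, which entered no test. Groups came from the sample titles. Of 33187 identifiers, 32548 matched a locus of RefSeq TAIR10.1, used only for names and for which genes overlap or adjoin.

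Genes with at least 1 TPM in at least 2 of the 4 libraries (20804) were log2-transformed after adding 1 TPM. They were fitted by limma (version 3.58.1, under R 4.3.3) with genotype as sole term and a variance trend, two-sided, with Benjamini-Hochberg adjustment over all of them and calls at an adjusted p under 0.05. This scale understates differences of low genes. An exact permutation test of 2 against 2 libraries cannot go below p = 0.333, so none was used.

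The 10 genes and all lists were chosen with earlier results of these data known. All 16 class IV genes, ERF4, up to 4 members of each other list with the smallest limma p and the 5 genes nearest to HDG3 were to be named. MUM4, PDF1, LACS2, GSO1, SESA3, TT10, MUM2, AT1G09927 and the neighbouring genes were named after their values were seen. Alternatives covered pseudocounts of 0.1 and 5, no filter or a mean of at least 5 TPM, median-of-ratios rescaling, no variance trend, an adjusted p under 0.1, the replicate number as a term, and leaving out each library.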

Additional observations from a re-analysis of the deposited data

How the results depend on the processing

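HDG3 kept a positive log2 difference in all 11 alternatives (1.35 to 1.63), as did FWA, HDG8, HDG9, ATML1 and GL2 where tested. PDF2 stayed negative (-0.37 to -0.05). The filters, the variance trend and the replicate term cannot change a gene's own difference, which stayed at 1.49 for HDG3. For genes whose genotypes do not overlap, neither a pseudocount nor leaving out a library can change the sign. The unchanged signs therefore add no support. With a pseudocount of 5, FWA, HDG8 and HDG9 stood at 0.41, 0.57 and 0.36. ANL2, HDG2, HDG11, HDG1, HDG5 and HDG12 changed sign in some alternatives. Under median-of-ratios rescaling 6 of the 10 genes were above the wild-type range (18.1% of all tested genes) and 1, PDF2, was below it. Leaving out a library gave 6 to 9 above and 0 to 3 below, with between 29.0% and 55.2% of all tested genes above. Neither count of the 10 genes can fall that way, because fewer libraries make the condition easier to meet. The 55.2% came without the library labelled erf4 replicate 1. Shares of tested genes below were computed for none of these alternatives. Calls over all genes were 0 to 169 higher and 0 to 35 lower when a library was left out, where the lone library is assumed to vary like the others. They came from leaving out wild type replicate 1 (169 and 35) or wild type replicate 2 (19 and 30), and the cause was not tested. With the replicate block, limma called 1083 of 20804 tested genes, 627 higher and 456 lower. It called 2 of the 10 genes, HDG3 and HDG8. Since HDG3 was chosen on this comparison, its call supports nothing further. Replicate differences correlated at 0.35 across genes, but no label says that a number marks shared material. Medians of the endosperm marker list ran from -0.61 to 0.32, of the paternally expressed list from -0.05 to 0.33 and of the maternally expressed list from -0.07 to 1.17. They ran from -0.35 to 0.24 for the other class IV genes, from -0.63 to -0.05 for embryo markers and from 0.06 to 0.26 for the GL2 network. For epidermis genes the range was 0.04 to 0.22, for seed coat markers 0.46 to 0.72 and for silique wall markers 0.12 to 0.26. Depth is unknown, so the counting error of low genes such as FWA, HDG8 and HDG11 cannot be given.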
